A study of Homo sapiens with 6 samples.

Results

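The highest-scoring peaks of a chromatin immunoprecipitation experiment in ACHN cells, a human renal carcinoma line, are described here. They were chosen by the authors' score alone: a peak was taken when it carried a score of 20 or more in any of 4 deposited peak lists, and identical lines were counted once. This left 559 of 213235 peaks. The 4 lists come from 2 antibodies, against the histone mark H3K27me3 and against EZH2, in 2 genotypes, cells labelled ZCCHC8-WT and cells labelled ZCCHC8-KO (titled sgZ8). An input library of each genotype served as the control of both lists of that genotype. There was 1 library per antibody and genotype, so every value rests on a single library and genotypes were set side by side without a test. Neither the way the knockout cells were derived nor whether they are a single clone was given in the labels, and a peak list offers no check of the knockout itself.

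EZH2 is the enzyme of the Polycomb complex PRC2, which places methyl groups on lysine 27 of histone H3 and keeps developmental genes silent. ZCCHC8 is the scaffold of NEXT, an adaptor that passes unstable nuclear RNAs to the exosome. Around human centromeres lie long arrays of satellite repeats, which the hg38 assembly represents by computed models, and such repeats are usually marked by H3K9 methylation. Reads from repeats can match many places, and a collapsed or missing copy in the assembly can gather reads from many others.

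Only 4 stretches of promoter sequence, the 250 bases before an annotated start, met a high-scoring peak. They are shown because PRC2 is known to gather at promoters rich in CG dinucleotides, and these are the members that lie at such a start and whose sequence was at hand. SORCS3, a sortilin-family receptor of neurons, has its stretch at chr10:104641040-104641289 on the plus strand, and PDE1C, a phosphodiesterase, at chr7:32070408-32070657 on the minus strand. LOC124906120, a gene model beside the hedgehog ligand gene IHH, has it at chr2:219061443-219061692 on the plus strand, and LOC107986746 at chr7:95645609-95645858 on the plus strand. Sequences are from RefSeq (GRCh38.p14), 5′ to 3′, with the dinucleotide CG, which reads the same on both strands, in capitals.
SORCS3: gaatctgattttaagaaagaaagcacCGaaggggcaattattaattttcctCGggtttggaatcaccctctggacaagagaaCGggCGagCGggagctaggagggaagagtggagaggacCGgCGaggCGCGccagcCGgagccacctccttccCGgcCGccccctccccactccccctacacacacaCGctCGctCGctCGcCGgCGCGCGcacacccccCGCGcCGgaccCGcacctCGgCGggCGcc
PDE1C: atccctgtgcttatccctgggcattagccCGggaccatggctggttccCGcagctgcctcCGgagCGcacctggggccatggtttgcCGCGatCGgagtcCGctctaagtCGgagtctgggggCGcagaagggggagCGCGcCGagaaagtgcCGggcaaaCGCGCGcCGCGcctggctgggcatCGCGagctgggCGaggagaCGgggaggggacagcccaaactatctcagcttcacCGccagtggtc
LOC124906120: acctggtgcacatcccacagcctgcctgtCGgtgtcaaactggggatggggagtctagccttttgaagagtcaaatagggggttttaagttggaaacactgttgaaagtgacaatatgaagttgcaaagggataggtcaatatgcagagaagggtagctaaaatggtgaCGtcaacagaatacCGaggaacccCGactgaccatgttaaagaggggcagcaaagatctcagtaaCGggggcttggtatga
LOC107986746: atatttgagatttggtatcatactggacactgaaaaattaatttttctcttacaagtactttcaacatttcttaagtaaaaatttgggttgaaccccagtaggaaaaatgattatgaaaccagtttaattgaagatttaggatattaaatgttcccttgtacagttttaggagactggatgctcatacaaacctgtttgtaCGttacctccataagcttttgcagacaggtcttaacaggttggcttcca

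The SORCS3 stretch held 27 CG dinucleotides and a G+C content of 66.0%, and 17.7% of 35116 promoters had at least as many in the same length. The PDE1C stretch held 24 at a G+C content of 68.0%, a number that 23.7% of promoters reach, and the stretch beside IHH held 5 (65.7%). LOC107986746 held 1 CG at a G+C content of 33.6%, and 93.9% of promoters had at least as many. Over all promoters the median was 11. The first 3 were met by EZH2 peaks of the WT list, with scores of 26, 25 and 24, and LOC107986746 by an H3K27me3 peak of the WT list with a score of 22. A KO EZH2 peak, of lower score, overlapped the peaks at SORCS3 and beside IHH, whereas the peak at PDE1C and the one at LOC107986746 overlapped none of the other 3 lists.

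The number of high-scoring peaks differed between the lists in a way that the length of the lists did not follow. The WT H3K27me3 list held 138 of 93095 peaks (0.148% of the list) and the KO H3K27me3 list 147 of 69840 (0.21%). The WT EZH2 list held 57 of 30734 (0.185%), and the KO EZH2 list, the shortest, held 217 of 19566 (1.11%). No source used here defines the score or states the read depth behind a list, so a score of 20 may not mean the same in any pair of lists. At the threshold itself 45, 25, 19 and 10 peaks had a score of 19 and 20, 16, 10 and 8 a score of 20, in the order WT H3K27me3, KO H3K27me3, WT EZH2 and KO EZH2, which is the order used below. The highest scores were 2644, 1744, 185 and 891, and 21, 47, 7 and 104 peaks reached 50.

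High-scoring peaks were wider than the rest of their list, with a median length of 654 bp against 269 bp, 374 against 265, 452 against 208 and 335 against 233. The score chose them, so this describes the choice. Within the H3K27me3 lists the pericentromeric members were the narrow ones, with medians of 542 and 351 bp beside 1051.5 and 781 bp for members in or near genes. The 4 gene-linked members of the KO EZH2 list were short too, with a median of 253 bp.

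Most of the members lay around centromeres. A peak was called pericentromeric when its midpoint fell in the centromere band or the longest gene-free stretch of its chromosome, each with 2 Mb on both sides. If not, it was called subtelomeric within 500 kb of a chromosome end, genic in a protein-coding gene or 5 kb around it, and otherwise other. Shares are followed by their exact 95% Clopper-Pearson interval, which covers counting error only, and neighbouring peaks are not independent of each other. Of the WT H3K27me3 members 92 of 138 (66.7%, 58.1 to 74.5) were pericentromeric, against 4.32% of all peaks of that list. In the KO H3K27me3 list 125 of 147 were (85.0%, 78.2 to 90.4), against 6.27%. Of the WT EZH2 members 23 of 57 were (40.4%, 27.6 to 54.2), against 3.49%, and of the KO EZH2 members 185 of 217 (85.3%, 79.8 to 89.7), against 9.04%. The share was lowest in the WT EZH2 list and above the list's own background in every list. With a threshold of 15 it was 26.8% in WT H3K27me3 and 23.1% in WT EZH2, and with modelled centromere spans alone it was 36.4% in KO EZH2.

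The genic class held a far smaller share of members than of all peaks, except in the WT EZH2 list. It took only peaks left by the pericentromeric and subtelomeric classes, so a large pericentromeric share lowers it. Outside pericentromeric regions 16 of 46 WT H3K27me3 members were genic, against 34862 of 89077 peaks. For KO H3K27me3 it was 5 of 22, against 25970 of 65461. For WT EZH2 it was 21 of 34, against 14327 of 29661, and for KO EZH2 4 of 32, against 8306 of 17798. Members that were genic numbered 16 in WT H3K27me3 (11.6%, 6.77 to 18.1, against 37.4% of all peaks) and 5 in KO H3K27me3 (3.4%, 1.11 to 7.76, against 37.2%). The WT EZH2 list had 21 (36.8%, 24.4 to 50.7, against 46.6%), an interval that holds the background, and the KO EZH2 list 4 (1.84%, 0.504 to 4.65, against 42.5%). With a threshold of 15 the genic share was 32.2% in WT H3K27me3 and 6.45% in KO EZH2, and at 30 it was 23.1% in WT EZH2. Chromosome ends held 10, 10, 6 and 14 members, or 7.25%, 6.8%, 10.5% and 6.45%, against 0.733%, 1.07%, 0.726% and 1.04% of all peaks. The remaining 20, 7, 7 and 14 members fell in none of these places. Among the 14 of the KO EZH2 list were 10 on the short arm of chromosome 21, of which 9 lay within 50 kb of entries of the 45S ribosomal RNA genes.

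**Figure D1:**
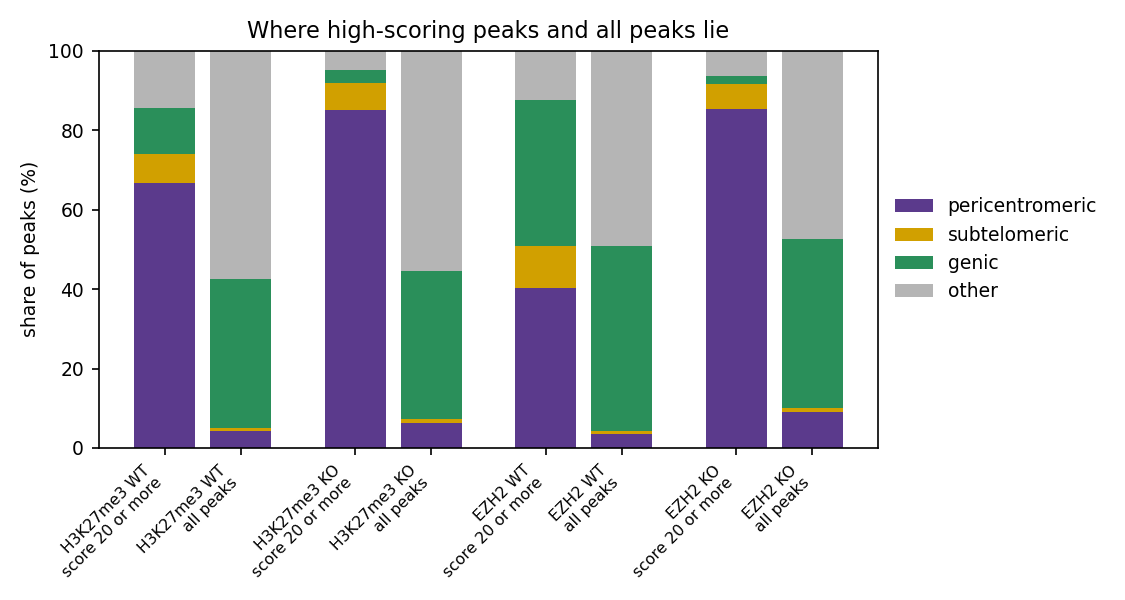
Stacked bars give the share of peaks (%, vertical axis) in 4 kinds of place, for the peaks with a score of 20 or more and for all peaks of each list. Pericentromeric peaks make up 66.7%, 85.0%, 40.4% and 85.3% of the high-scoring bars and between 3.49% and 9.04% of the bars for all peaks.

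The step into pericentromeric DNA came at different scores in the WT and KO lists. In the WT lists 18.7% of H3K27me3 peaks and 18.2% of EZH2 peaks with a score of 15 to 19 were pericentromeric, and 62.9% and 40.9% in the bin from 20 to 29. In the KO lists 79.9% and 71.0% were so already at 15 to 19, with 89.4% and 80.4% at 20 to 29. Below a score of 10 no list exceeded 12.5%. From 30 to 49 the shares were 64.3% of 28, 76.5% of 34, 16.7% of 6 and 78.9% of 57 peaks, so WT EZH2 fell back there. At 50 and above the shares were 85.7% of 21, 85.1% of 47, 57.1% of 7 and 91.3% of 104 peaks. Since the score scale may differ between genotypes, a bin of one list does not correspond to the same bin of another.

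**Figure D2:**
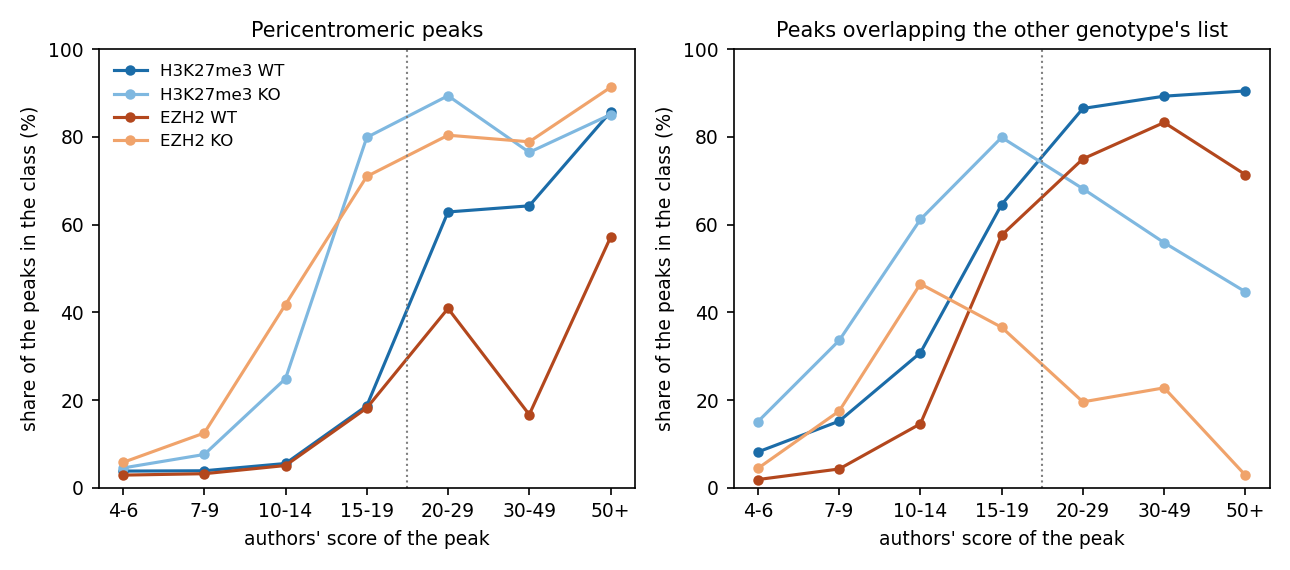
Lines follow, for each list, the share of peaks (%, vertical axis) that is pericentromeric (left) and that overlaps any peak of the same antibody in the other genotype (right), by bins of the authors' score (horizontal axis). The dotted line marks the threshold of 20. Above it pericentromeric shares are 40.9% or more, except for WT EZH2 at 30 to 49 (16.7% of 6 peaks). The overlap of KO EZH2 peaks is highest at 10 to 14 (46.5%) and lowest at 50 and above (2.88%).

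Satellite content could not be read directly, because no genome sequence was at hand and repeats were not analysed here. The modelled centromere spans of hg38, which stand for alpha satellite arrays, give a partial view. Of the pericentromeric members 72 of 92, 98 of 125, 17 of 23 and 79 of 185 lay inside a modelled span. In the first 3 lists that is 78.3%, 78.4% and 73.9%, against 22.5%, 35.7% and 37.2% of all pericentromeric peaks of the list. In the KO EZH2 list it is 42.7%, against 57.4%, so there the members lay in a modelled array at a lower share than pericentromeric peaks in general. Of the members inside a span, 7, 17, 3 and 14 lay within 50 kb of its edge. They were 7.61%, 13.6%, 13.0% and 7.57% of the pericentromeric members, and 1.02%, 1.64%, 2.05% and 2.66% of all pericentromeric peaks lay within 50 kb of an edge on either side of it.

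The chromosomes involved differed between the lists. Chromosome 2 held 64 of the 138 WT H3K27me3 members, 43 of the 147 KO H3K27me3 members, 13 of the 57 WT EZH2 members and 16 of the 217 KO EZH2 members. All 64 and all 43 were pericentromeric. Chromosome 1 held 9, 22, 6 and 44 members, chromosome 4 held 3, 6, 1 and 26, chromosome 16 held 4, 8, 2 and 25, and chromosome 17 held 5, 11, 3 and 14. Chromosome 19 held 1, 13, 1 and 6, of which 1, 12, 0 and 6 lay in its modelled span, so KO H3K27me3 had the most there. No member lay on chromosome 15 or X in any list. On chromosome 7 the WT members lay along the arms: its 19 WT H3K27me3 and 8 WT EZH2 members included none that was pericentromeric, while all 8 KO EZH2 members were.

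**Figure D3:**
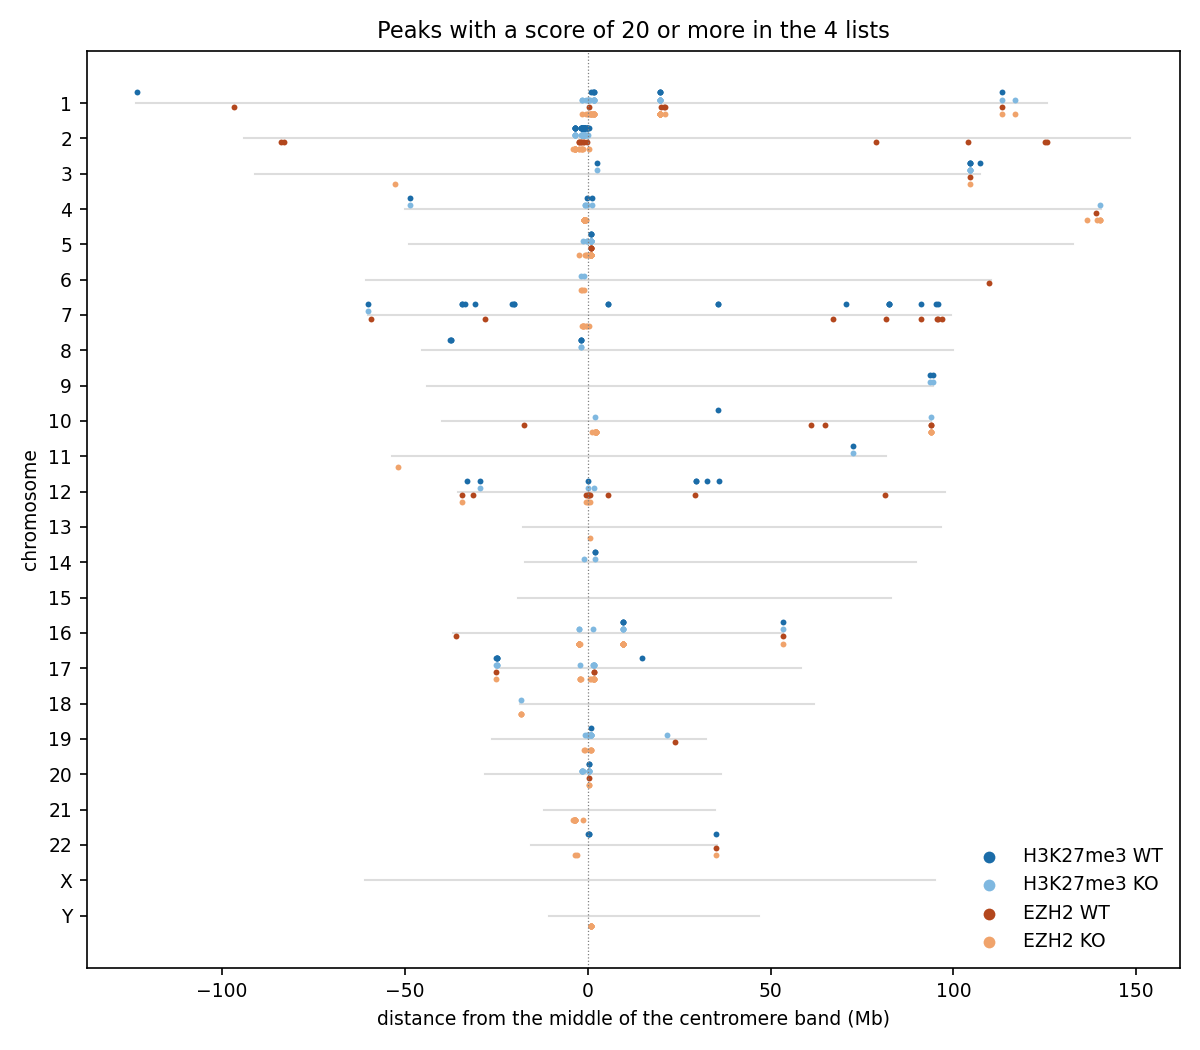
Each dot is 1 high-scoring peak, placed by chromosome (vertical axis) and by its distance from the middle of the centromere band (Mb, horizontal axis), with the 4 lists in 4 colours. Dots gather at 0, and the 19 WT H3K27me3 and 8 WT EZH2 peaks of chromosome 7 are spread along its arms.

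The modelled array of chromosome 2 was the richest in H3K27me3 members. Along chr2:92198720-94277324, which runs somewhat past the modelled span, there were 59 in WT, 38 in KO, and 4 and 5 for EZH2 in WT and KO. The span itself held 58, 38, 4 and 4 of them. Scores were modest throughout, between 20 and 52 in WT H3K27me3, 20 and 42 in KO H3K27me3, 20 and 24 in WT EZH2 and 20 and 30 in KO EZH2. The stretch was filled with peaks of lower score as well, with 768, 813, 246 and 278 peaks of any score. In the modelled span there were 762, 801, 238 and 272. Both antibodies and both genotypes were thus listed in the array, though not at each of its places, and H3K27me3 reached the threshold more often. At chr2:92711279-92714036, for instance, neither EZH2 list had a peak.

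In several stretches outside the modelled spans the KO EZH2 list had the most members. On the long-arm side of the chromosome 1 centromere, chr1:143184860-143262895, 23 KO EZH2 members with scores of 74 to 440 lay among 7 KO H3K27me3 members (75 to 342) and 3 WT H3K27me3 members (184 to 344). WT EZH2 had no peak of any score there. The long-arm side on chromosome 16, chr16:46380810-46401557, had the same order, with 11 KO EZH2 members (57 to 891), 4 KO H3K27me3 members (467 to 630), 3 WT H3K27me3 members (486 to 585) and again no WT EZH2 peak. Its short-arm side, chr16:34571612-34595789, held 12 KO EZH2 members (71 to 696) and 2 KO H3K27me3 members, and no WT peak of either antibody. On the short-arm side of chromosome 2, chr2:90380736-90400364, members numbered 5, 5, 0 and 8, and WT EZH2 had no peak.

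Some stretches held members of the KO lists only. The short-arm side of the chromosome 4 centromere, chr4:49097152-49154940, held 18 KO EZH2 members (20 to 89), 1 KO H3K27me3 member and no WT peak. On chromosome 10, chr10:41854936-42104993, there were 11 KO EZH2 members (20 to 134), 1 KO H3K27me3 member and no WT peak. The modelled array of chromosome 7, chr7:58434460-60522462, held 8 KO EZH2 members (26 to 69) and no member of another list, although 1, 6 and 6 peaks of lower score were listed there in WT H3K27me3, KO H3K27me3 and WT EZH2. Peak lists do not show how many reads of the WT libraries or their input lay in these stretches.

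WT EZH2 did reach the threshold at some centromeres. On chromosome 5, chr5:49599625-49667253, members numbered 3, 9, 4 and 16, with top scores of 101, 273, 136 and 245. In the array of chromosome 17, chr17:22977517-26885899, there were 2 WT EZH2 members with scores of 151 and 185, the highest of that list, beside 7 KO H3K27me3 and 13 KO EZH2 members and no WT H3K27me3 member. In and beside the array of chromosome 12, chr12:35126827-37246611, WT EZH2 had 5 members, KO EZH2 4, KO H3K27me3 2 and WT H3K27me3 1. Of the KO H3K27me3 members there, 1 lay inside the modelled span. At the end of the chromosome 1 array, chr1:124143846-125184065, members numbered 4, 7, 0 and 12, with top scores of 731 and 752 for H3K27me3 in WT and KO and of 836 for EZH2 in KO. WT EZH2 had 10 peaks there, with a top score of 18.

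The top score in both H3K27me3 lists belonged to 1 peak without EZH2. At chr3:93470358-93470789, inside the modelled array of chromosome 3, H3K27me3 scored 2644 in WT and 1744 in KO, and neither EZH2 list had a peak. Chromosome 4 held a similar place at chr4:49709216-49711951, where H3K27me3 scored 423 and 328 and EZH2 had no peak. The array of chromosome 20, chr20:26541977-28534675, held 2, 10, 1 and 2 members among 17, 357, 8 and 76 peaks of any score.

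**Figure D4:**
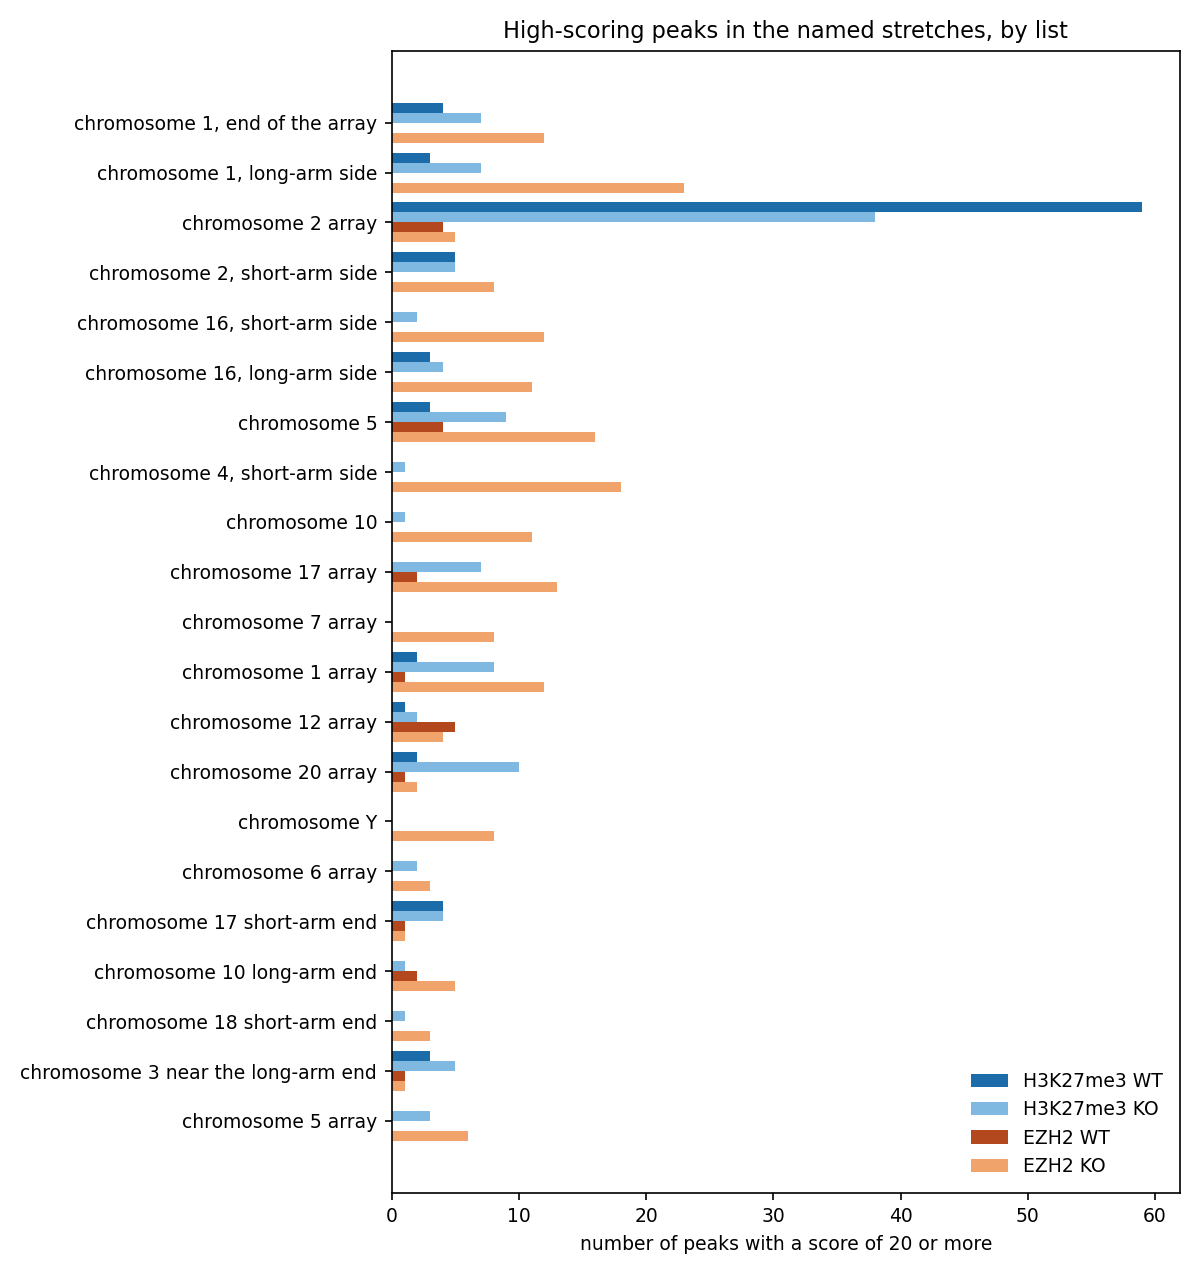
Bars count the peaks with a score of 20 or more (horizontal axis) of each of the 4 lists in 21 stretches (vertical axis) picked after their values were seen. The stretches of the chromosome 1 array and of its end overlap, so some peaks count in both. A stretch named after an array can run past its modelled span. KO EZH2 alone has the longest bar in 16 of the 21 stretches. H3K27me3 in WT leads in the stretch of the chromosome 2 array with 59, and WT EZH2 has bars in 9 and leads in that of the chromosome 12 array with 5. The modelled array of chromosome 19 is not drawn, and KO H3K27me3 had 12 members there and KO EZH2 6.

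Recurrence was measured peak by peak first, as an overlap of at least 1 bp with a peak of any score. Of the WT H3K27me3 members 87.7% (81.0 to 92.7) overlapped a KO H3K27me3 peak, against 15.9% of all WT H3K27me3 peaks, and 57.8% (49.4 to 65.9) of the KO H3K27me3 members overlapped a WT peak, against 21.4%. Of the WT EZH2 members 75.4% (62.2 to 85.9) overlapped a KO EZH2 peak, against 5.13%. The KO EZH2 members stood apart, as 12.4% (8.36 to 17.6) overlapped a WT EZH2 peak, against 7.97% of all peaks of that list. By bins of the score, from the lowest to 50 and above, the KO EZH2 shares were 4.44%, 17.5%, 46.5%, 36.6%, 19.6%, 22.8% and 2.88%, with the highest value at 10 to 14. KO H3K27me3 peaks stood at 79.9% at 15 to 19 and at 44.7% at 50 and above. WT H3K27me3 peaks rose to 90.5% there. Without pericentromeric peaks 25.0% of KO EZH2 members overlapped a WT EZH2 peak. Wider peaks overlap others more easily, and width was not held equal.

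Overlap with the other antibody of the same genotype was found for 53.6% (44.9 to 62.1) of WT H3K27me3 members, against 4.52% of all peaks, and for 61.2% (52.8 to 69.1) of KO H3K27me3 members, against 5.27%. For EZH2 it was 50.9% (37.3 to 64.4) in WT, against 14.0%, and 29.0% (23.1 to 35.6) in KO, against 19.0%. The H3K27me3 and EZH2 lists of a genotype share 1 input library, and with it the errors of that library. With at least 50% of the peak covered, the overlap was 34.1% in WT H3K27me3 and 31.6% in WT EZH2. A peak in each of the other 3 lists was overlapped by 48 of 138 members (34.8%, against 0.491% of all peaks), 30 of 147 (20.4%, against 0.651%), 19 of 57 (33.3%, against 1.26%) and 14 of 217 (6.45%, against 1.99%). No other list had a peak at 8, 21, 8 and 137 members. Those 137 were 63.1% of the KO EZH2 members, a share below the 69.8% of all KO EZH2 peaks that met no other list. In the other 3 lists 80.0%, 73.8% and 78.6% of all peaks met no other list, above the members' shares.

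Joined across gaps of up to 10 kb, the 559 peaks made 234 places, of which 153 were pericentromeric, 12 subtelomeric, 36 genic and 33 other. In 158 places the members came from 1 list, in 54 from 2, in 15 from 3 and in 7 from all 4. Of the 54 places, 25 paired the H3K27me3 lists of both genotypes, 20 paired both antibodies in KO and 6 paired the EZH2 lists of both genotypes. Another 9 places, all pericentromeric, had members of every list but WT EZH2. Places with members of 1 list only numbered 59 for KO EZH2, 42 for WT H3K27me3, 31 for WT EZH2 and 26 for KO H3K27me3. The kind of place differed among them: 48 of the 59 and 25 of the 26 KO places were pericentromeric, but 15 of the 42 WT H3K27me3 places and 6 of the 31 WT EZH2 places were, and 18 of those 31 were genic.

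The 7 places with a member in all 4 lists were of several kinds. One was genic: ACTN2, the alpha-actinin of muscle Z-discs, held a peak at chr1:236713604-236715148 with scores of 45, 47, 39 and 31 and lengths of 1391, 1545, 1397 and 1406 bp, inside the gene. The 4 peaks had nearly the same start and end. Of the pericentromeric places, chr12:35614868-35615100 scored 29, 40, 35 and 38, chr2:92198720-92200818 reached 52, 42, 22 and 30, and chr5:49599625-49633686 held 3, 8, 4 and 8 members.

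The other 3 lay towards chromosome ends. On chromosome 16, chr16:90116789-90118329 in the non-coding gene FAM157C scored 62, 44, 30 and 22. At the short-arm end of chromosome 17, chr17:116863-128117, H3K27me3 had 4 members in WT and 4 in KO, and EZH2 1 in each, with top scores of 98, 68, 53 and 49. On chromosome 3, chr3:195483541-195504698 held 3, 5, 1 and 1 members with top scores of 64, 90, 54 and 43, among 16, 15, 7 and 10 peaks of any score. These 3 places lay outside protein-coding genes of the gene table.

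Entries of the DUX4 family were among the places with KO EZH2 members. DUX4 is a double-homeobox factor of the early embryo whose gene lies in a repeat array near the end of chromosome 4. Of 52 entries of the family in the gene table, 8 had a KO EZH2 member in them or within 5 kb (15.4%), against 0.0535% of all 59792 entries. For KO H3K27me3 there were 2 such entries (3.85%, against 0.0418%), for WT EZH2 1 (1.92%, against 0.0769%) and for WT H3K27me3 0 (against 0.114%). The members themselves numbered 0, 2, 2 and 17 by list. Entries of an array lie close together, and 1 run of peaks can fall near several of them. The family was named with earlier results of these data known, so the gap to all entries is a description and was not tested.

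At DUX4 itself, chr4:190173774-190185911, KO EZH2 had 3 members with scores of 34, 107 and 245 and KO H3K27me3 had 1 with a score of 69, all inside the entry. Near the end of chromosome 10, KO EZH2 had 4 members (42, 166, 69 and 78), KO H3K27me3 1 (101) and WT EZH2 2 (46 and 58) within 5 kb past the right end of DUX4L20 and none in that entry. On chromosome Y, chrY:11305291-11334405, KO EZH2 had 8 members (21 to 109) within 5 kb of DUX4L16, DUX4L17, DUX4L18 and DUX4L19, none of them in an entry, and no other list had a peak. DUX4L15 on chromosome 10 and DUX4L44 on chromosome 22 had 1 KO EZH2 member each (48 and 53). The copies are near-identical, so the copy that each peak belongs to is uncertain.

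The FAM157 genes, non-coding genes near chromosome ends that were picked after their values were seen, had 4, 3, 1 and 1 members over 4 entries. Of all 59792 entries 0.114%, 0.0418%, 0.0769% and 0.0535% had a member in them or within 5 kb. Because the family was picked by its values, the gap describes the choice. FAM157C had a member in all 4 lists, FAM157B (scores 37 and 30) and FAM157D (40 and 32) in both H3K27me3 lists and FAM157A (23) in WT H3K27me3 only. In the WT H3K27me3 list the peak began 14525, 14553, 15621 and 4363 bases from the left end of FAM157C, FAM157B, FAM157A and FAM157D. The FAM157D peak ended 10829 bases from the right end of its entry. Strand was not given, so the left end need not be the same end of each gene. The sequences of the entries were not compared, so the copy that each peak belongs to is uncertain. For this family H3K27me3 was the antibody with more members. For DUX4 it was EZH2, in the KO list, which also had the most members of any list (217).

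**Figure D5:**
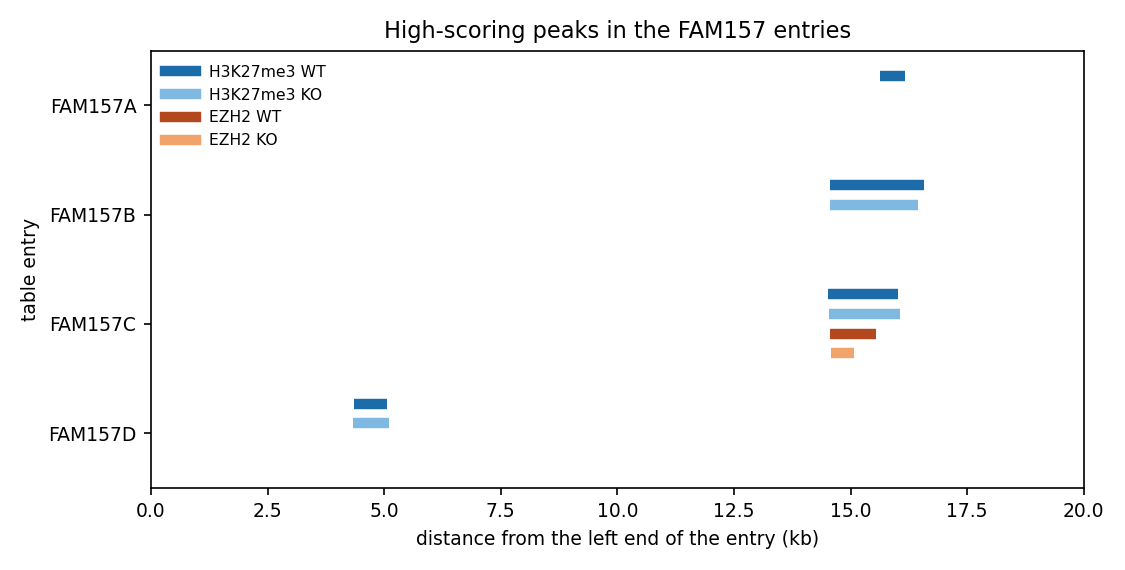
Bars show high-scoring peaks of the 4 lists in the 4 table entries of the FAM157 family (vertical axis), by distance from the left end of the entry (kb, horizontal axis). WT H3K27me3 peaks begin at 14525, 14553 and 15621 bases in FAM157C, FAM157B and FAM157A and at 4363 bases in FAM157D. Strand was not given, so the left end need not be the same end of each gene.

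At the short-arm end of chromosome 18, chr18:107201-110741, KO EZH2 had 3 members (49 to 290) and KO H3K27me3 1 (108), and neither WT list had a peak. On the short arm of chromosome 21, around 3 entries of the 45S ribosomal RNA genes with 50 kb on both sides, KO EZH2 had 9 members with scores up to 32. WT EZH2 had no peak of any score there, and H3K27me3 had 15 peaks in WT and 13 in KO with top scores of 10 and 7. Within 5 kb of a 45S entry, the distance used for other genes, lay only 1 KO EZH2 member. It scored 27 and was outside the entry, and no other list had a peak at that distance. A further KO EZH2 member at chr21:7926292-7926515 scored 501.

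Few protein-coding genes were touched: 19 of 20056 had a WT H3K27me3 member in the gene or within 5 kb (0.0947%), 6 had a KO H3K27me3 member (0.0299%), 24 a WT EZH2 member (0.12%) and 6 a KO EZH2 member (0.0299%). Outside pericentromeric regions 14 of 34 WT EZH2 members (41.2%, 24.6 to 59.3) lay within 5 kb of a transcription start, against 13.8% of all such peaks of the list. For WT H3K27me3 it was 10 of 46 (21.7%, 10.9 to 36.4, against 8.77%), for KO H3K27me3 3 of 22 (13.6%, 2.91 to 34.9, against 9.91%) and for KO EZH2 3 of 32 (9.38%, 1.98 to 25.0, against 15%). The share was above the background of its list in both WT lists, and the intervals of both KO lists held it.

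Genes with members of more than 1 list were few besides ACTN2. EXD3, an exonuclease-domain gene, had an H3K27me3 member in WT (46) and KO (53), and so did ANO2, a calcium-activated chloride channel (42 and 40), and CDON, a hedgehog co-receptor (31 and 27). FMN2, a formin that nucleates actin, had a member only in the KO lists, with 35 for H3K27me3 and 71 for EZH2 in overlapping peaks of 179 and 223 bp. ERC1, a scaffold of the presynaptic active zone, had an EZH2 member in both genotypes, 25 in WT and 33 in KO. GBX1, a homeobox gene of the hindbrain and spinal cord, had a member of both antibodies in WT, 25 for H3K27me3 and 23 for EZH2. DUX4 was the other gene with members of both KO lists, described above.

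The other genes named here had a member in 1 list each. SHH and IHH, the hedgehog ligands, had WT EZH2 peaks of 1434 and 1091 bp with scores of 25 and 24, and KO EZH2 overlapped both with lower scores. CYS1, a protein of primary cilia, scored 29, and ADAP1, a GTPase-activating protein of the Arf family, 27. ARID1A, a subunit of the BAF chromatin remodeller, scored 42 with a peak of 430 bp that overlapped no other list, and LOC124900586, a predicted gene on chromosome 16, scored 41. In WT H3K27me3 the named members were CACNA1C, an L-type calcium channel subunit (25), WIF1, a secreted WNT inhibitor (23, over 2920 bp), and the beta-defensin genes DEFB107A (2 members), DEFB105B and DEFB107B, all with a top score of 23. DLEC1 (23) and LOC124905450 (290, at the chromosome 18 short-arm end) were the other genes with a KO EZH2 member. The member with a score of 290 lay outside LOC124905450, within 5 kb of it, and overlapped the pseudogene ROCK1P1. Defensin genes have near-identical copies, and genes listed in the first megabase of a chromosome may belong to unplaced sequence, so these values are uncertain.

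Counts in the gene lists stand beside shares over all 20056 protein-coding genes of 0.0947%, 0.0299%, 0.12% and 0.0299% by list. At shares this low, a count of 0 in a short list says little about its genes. Of 131 developmental transcription factors 1, GBX1, had a member in WT H3K27me3 and in WT EZH2, and none had one in KO. Of 44 signalling genes WIF1 had one in WT H3K27me3, SHH and IHH had one in WT EZH2, and none had one in KO. No HOX gene of 39 and no housekeeping gene of 23 had a member in any list. Of 233 genes with name prefixes of duplicated families 7 had one, with 5, 1, 1 and 1 by list, namely DUX4, the ankyrin-repeat gene POTEH, 4 defensin genes and TBC1D30, which shares the prefix of a duplicated family. ZCCHC8, EZH2, SUZ12 and EED, the scaffold of NEXT and the core of PRC2, had no member in the gene or within 5 kb in any list. Peaks of lower score there were 1 WT EZH2 peak in EED (173 bp, score 6) and 1 in EZH2 (161 bp, score 9).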

How the data were processed

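H3K27me3 and EZH2 were each precipitated from ACHN cells of both genotypes, and each list was assigned by its genotype label and title. Per the submitters' processing notes, cutadapt 1.9.3 and Bowtie2 2.2.4 were used with hg38. The peak caller was not named in any label or header. The deposited lists hold positions, lengths in bp as deposited and a score that the authors gave each peak and that no source used here defines. The score therefore only ranked and filtered peaks within a list.

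Identical lines were collapsed and coordinates read as 1-based. Places, overlaps and exact 95% intervals were computed with Python 3.11.15, pandas 2.3.3, NumPy 2.4.6 and SciPy 1.17.1, and drawn with matplotlib 3.10.9. Counting routines were tested on simulated data. Genes came from a RefSeq table (GRCh38.p14) without strand or exons, and starts from its promoter table. No genome was used, so satellite content was not analysed here.

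Chromosome lengths, centromere bands and modelled spans of hg38 were entered by hand from general knowledge. As a check, 21 of 24 spans held no gene of the table, and 21 of 24 overlapped the longest gene-free stretch. The gene table lists genes of unplaced sequence under a chromosome, with 206 entries in the first 5 Mb of acrocentric short arms.

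Members, gene lists and settings were chosen with earlier results of these data known. Named were places with members in all 4 lists, per list the 5 places with most members and the 5 with the highest score (a selection is printed), per list the 10 protein-coding genes with most members, up to 4 members of each gene list, and ZCCHC8, EZH2, SUZ12 and EED. Stretches that join neighbouring places, the places outside that rule and the FAM157 genes were picked after values were seen. Alternatives changed the threshold, the definition of places, the overlap and the joining of peaks.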

Additional observations from a re-analysis of the deposited data

How the results depend on the processing

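No paired analysis was possible because each antibody and genotype had 1 library, and no replicate could be left out. Of 168 values computed under another setting, 91 stayed within the counting interval or within 1.5 times of the value reported, and 77 moved beyond it. None was tested. Values below follow the order WT H3K27me3, KO H3K27me3, WT EZH2, KO EZH2 where they are not named.

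The number of members follows the threshold: 816, 306 and 255 at a score of 15 or more in the first 3 lists, 49, 81 and 13 at 30 or more, and 21, 47, 7 and 104 at 50 or more in all 4. At 15 or more the pericentromeric share was 26.8% in WT H3K27me3 and 23.1% in WT EZH2, and the genic share 32.2% in WT H3K27me3, 54.1% in WT EZH2 and 6.45% in KO EZH2. At 50 or more the pericentromeric share was 85.7% in WT H3K27me3, 57.1% in WT EZH2 and 91.3% in KO EZH2, and the genic share 0.0% in both WT lists. At 30 or more the genic share of WT EZH2 was 23.1%. With the 57 top-scoring peaks of every list the pericentromeric share was 75.4% in WT H3K27me3 and 91.2% in KO EZH2, and the genic share of KO EZH2 was 0.0%.

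The definition of a place matters too. Over covered bases instead of peaks the pericentromeric share was 52.9%, 74.4% and 27.5% in the first 3 lists, and over clusters 56.5% in WT H3K27me3. With the centromere band and 2 Mb only it was 77.6% in KO H3K27me3 and 69.1% in KO EZH2, where it was 68.7% with no flank and 89.9% with 5 Mb on both sides. Chosen after seeing the data were the modelled spans alone, which gave 52.2%, 66.7% and 36.4% in WT H3K27me3, KO H3K27me3 and KO EZH2, and the inclusion of the short arms of acrocentric chromosomes, which gave 89.9% in KO EZH2. With all kinds of gene the genic share was 20.3% in WT H3K27me3 and 5.53% in KO EZH2.

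Overlap with the other genotype was 68.5%, 69.3%, 61.6% and 19.7% at a score of 15 or more. It was 49.4% at 30 or more and 44.7% at 50 or more in KO H3K27me3, and 2.88% at 50 or more in KO EZH2. When at least 50% of the peak had to be covered it was 79.0% in WT H3K27me3, and within 1 kb 94.9%. Without pericentromeric peaks it was 81.8% in KO H3K27me3 and 25.0% in KO EZH2. Overlap with the other antibody was 31.5%, 44.9% and 23.8% at 15, 30 and 50 or more in WT H3K27me3, and 52.6%, 71.6% and 78.7% in KO H3K27me3. It was 34.1%, 49.0% and 31.6% in the first 3 lists when at least 50% had to be covered, and 62.3% in WT H3K27me3 and 39.6% in KO EZH2 within 1 kb.

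Joined across 100 kb, WT H3K27me3 formed 57 clusters in place of 92, and across 1 kb KO EZH2 formed 163 in place of 107. Places of 1 list only numbered 240 with 1 kb and 98 with 100 kb. At 15 or more, places in 1, 2, 3 and 4 lists numbered 710, 118, 24 and 19. At 30 or more those in 1, 2 and 4 lists numbered 63, 26 and 4, and at 50 or more 28, 11 and 1. With 57 peaks a list they numbered 63, 18 and 1. The cause of these moves was not tested beyond what each setting itself changes. In each of the settings run, the pericentromeric share was higher in KO EZH2 than in WT EZH2 (36.4% and 29.8% in modelled spans alone, the closest pair), and KO EZH2 had the lowest share of peaks overlapping the other genotype. Read depth was not known for any list.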
